A study of Mus musculus with 9 samples.

Results

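The heat shock proteins and chaperones analysed here are the genes whose symbols begin with Hsp, Dnaja, Dnajb, Dnajc or Cct and a family number or letter, together with Tcp1, the first subunit of the cytosolic chaperonin. The rule reads symbols only and no measured value. It found 87 of the 38197 gene symbols in the count and FPKM tables of sorted mouse neural stem cells (NSCs). They comprised 3 HSP90 genes, 11 HSP70 genes, 3 HSP110 genes, the 2 subunits of the mitochondrial chaperonin, 10 genes of the cytosolic chaperonin CCT or named like its subunits, 8 small heat shock protein genes, 4 DNAJA, 13 DNAJB and 28 DNAJC genes, and 5 symbols of pseudogenes, which were kept apart. All 87 symbols matched a gene of the GENCODE M21 annotation of mouse genome build GRCm38, from which the positions below were taken.

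The NSCs were differentiated in monolayer from wild-type mouse embryonic stem cells (ESCs) of strain 129, of the line E14.1, treated with retinoic acid (RA) and the Smoothened agonist SAG over the first 3 days as the labels give it (the methods place the change to medium without them somewhat later), and isolated on beads carrying an antibody to prominin-1. RA and SAG were given to every culture, so no group is untreated and the labels separate the groups by time alone. The groups were 4.5DDC, 5.5DDC and 6.5DDC (days in differentiation conditions), with 3 libraries each, although another field of the sample labels rounds these times down to whole days. The labels number the replicates 1 to 3 and do not say whether they came from separate cultures, so p-values measure the spread between these libraries, which may be technical. Counts per library summed to 11066572 to 25506192. All 11 neural progenitor markers listed for this check were detected, and their summed level was 2261 to 3292 FPKM over the 9 libraries, against 0.393 to 2.28 FPKM for 7 pluripotency markers. Of the progenitor markers Vim alone had 1235 to 2455 FPKM. Markers of neurons summed to 229 to 1011 FPKM, and these sums were lower in replicate 1 (272, 229 and 466 FPKM at 4.5, 5.5 and 6.5DDC) than in replicates 2 and 3 (487 to 1011 FPKM) at every time point. In bulk RNA a lower share of cells of one type and less RNA per cell cannot be told apart.

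Chaperones bind unfolded or partly folded proteins and help them to reach, or return to, their folded state. HSP70 proteins hold short hydrophobic stretches in a cycle driven by ATP, J-domain proteins (the DNAJ families) deliver clients and start ATP hydrolysis, and HSP110 proteins release the nucleotide. HSP90 acts later on kinases, receptors and other near-native clients, the ring-shaped chaperonins enclose whole proteins, and CCT is known for folding actin and tubulin, which growing neural cells need. A few of these genes are set by stress through heat shock factors or, in the endoplasmic reticulum (ER), by the unfolded protein response, while most are expressed in every cell.

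Short promoter elements known from these 2 stress programmes were searched for, to show which members carry them. Promoters were those of RefSeq on build GRCm38.p6, from 250 bases upstream of an annotated start up to that start, and 67 of the 87 members matched one. The ER stress element (ERSE, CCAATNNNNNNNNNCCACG, searched on both strands) was present in 35 of 27025 symbols with a promoter (0.13%), among them the members Hspa5, Hsp90b1 and Dnajc3. In the stretches below, written 5′ to 3′ on the strand of the gene, capitals mark the element, which lies at chr2:34772020-34772048 for Hspa5, chr14:118937822-118937850 for Dnajc3 and chr10:86705633-86705661 and chr10:86705528-86705556 for the far and near copies of Hsp90b1, coordinates that include the flanking 5 bases. That of Hspa5 lies inside an annotated exon of the gene, and the other 3 inside no exon.
Hspa5: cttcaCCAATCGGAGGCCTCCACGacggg
Dnajc3: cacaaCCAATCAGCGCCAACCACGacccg
Hsp90b1, far copy: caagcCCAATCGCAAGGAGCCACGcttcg
Hsp90b1, near copy, with the element on the opposite strand: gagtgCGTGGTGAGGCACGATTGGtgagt

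The heat shock element, searched as 3 alternating repeat units on both strands (GAANNTTCNNGAA or TTCNNGAANNTTC), was present in 139 of 27025 symbols with a promoter (0.514%), among them the members Hspd1, Hspe1 and Dnajb6. Hspd1 and Hspe1, the ring and the lid of the mitochondrial chaperonin, are neighbours that start on opposite strands, and their element is one and the same stretch at chr1:55088054-55088081, in which 2 matches overlap. It overlaps an annotated exon of Hspd1, and is shown on the plus strand, the strand of Hspe1, beside that of Dnajb6 at chr5:29735847-29735869, which also overlaps an annotated exon of its gene. A match describes letters only, and no binding was measured. Only exact letters within the window were searched, so a member without a match is not shown to lack the element. Members without a matched promoter were not searched.
Hspe1 and Hspd1: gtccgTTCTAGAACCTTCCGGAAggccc
Dnajb6: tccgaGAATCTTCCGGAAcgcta

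The abundance of the members spanned from none to over 1000 FPKM, a level scaled to exon length and library size. Leaving the pseudogene symbols aside, 2 members averaged above 1000 FPKM over the 9 libraries, 16 lay between 100 and 1000, 31 between 10 and 100, 20 between 1 and 10, 8 below 1, and 5 had no read in any library. The 87 symbols together took up 1.32% of the summed FPKM. HSP90 made up 35.8% of that chaperone sum, CCT 21.3%, HSP70 18.1% and the 28 DNAJC genes 11.8%. Small heat shock proteins, which hold unfolded proteins without ATP, made up 0.488%, of which 80.4% came from Hspb11, known as a subunit of the intraflagellar transport machinery of cilia.

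Hsp90ab1, the constitutive cytosolic HSP90 (chr17:45567775-45573271, minus strand), had the highest mean, with 1518, 1633 and 1657 FPKM at 4.5DDC, 1369, 1358 and 1312 at 5.5DDC and 1516, 1444 and 1291 at 6.5DDC. Hsp90b1, its ER counterpart (chr10:86690209-86705509, minus strand), stood close to it, with 1602, 1219 and 1567 FPKM at 4.5DDC, 1250.0, 1510.2 and 1499 at 5.5DDC and 1760.4, 1412 and 1148 at 6.5DDC. The ranges of both genes overlapped at each time point, so their order was not resolved. Hspa8, the constitutive cytosolic HSP70 (chr9:40800984-40810087, plus strand), followed, with 779, 1103 and 1148 FPKM at 4.5DDC, 708, 892 and 956 at 5.5DDC and 1184, 765 and 728 at 6.5DDC. Hspa5, the main HSP70 of the ER, also called BiP (chr2:34771970-34777547, plus strand), had 607, 538 and 639 FPKM at 4.5DDC, 521, 588 and 628 at 5.5DDC and 878, 537 and 441 at 6.5DDC. Both HSP70 genes were highest in replicate 1 at 6.5DDC. The 8 genes of the CCT ring, which assemble in equal numbers, averaged between 139 FPKM for Cct7 and 338 FPKM for Cct8. Other class leaders were Hspa4 among HSP110 genes (149 FPKM), Dnajc7 (415 FPKM), Dnajb11 (108 FPKM) and Dnaja1 (71.9 FPKM) among J-domain genes, and Hspd1 (96.7 FPKM) of the mitochondrial chaperonin.

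**Figure D1:**
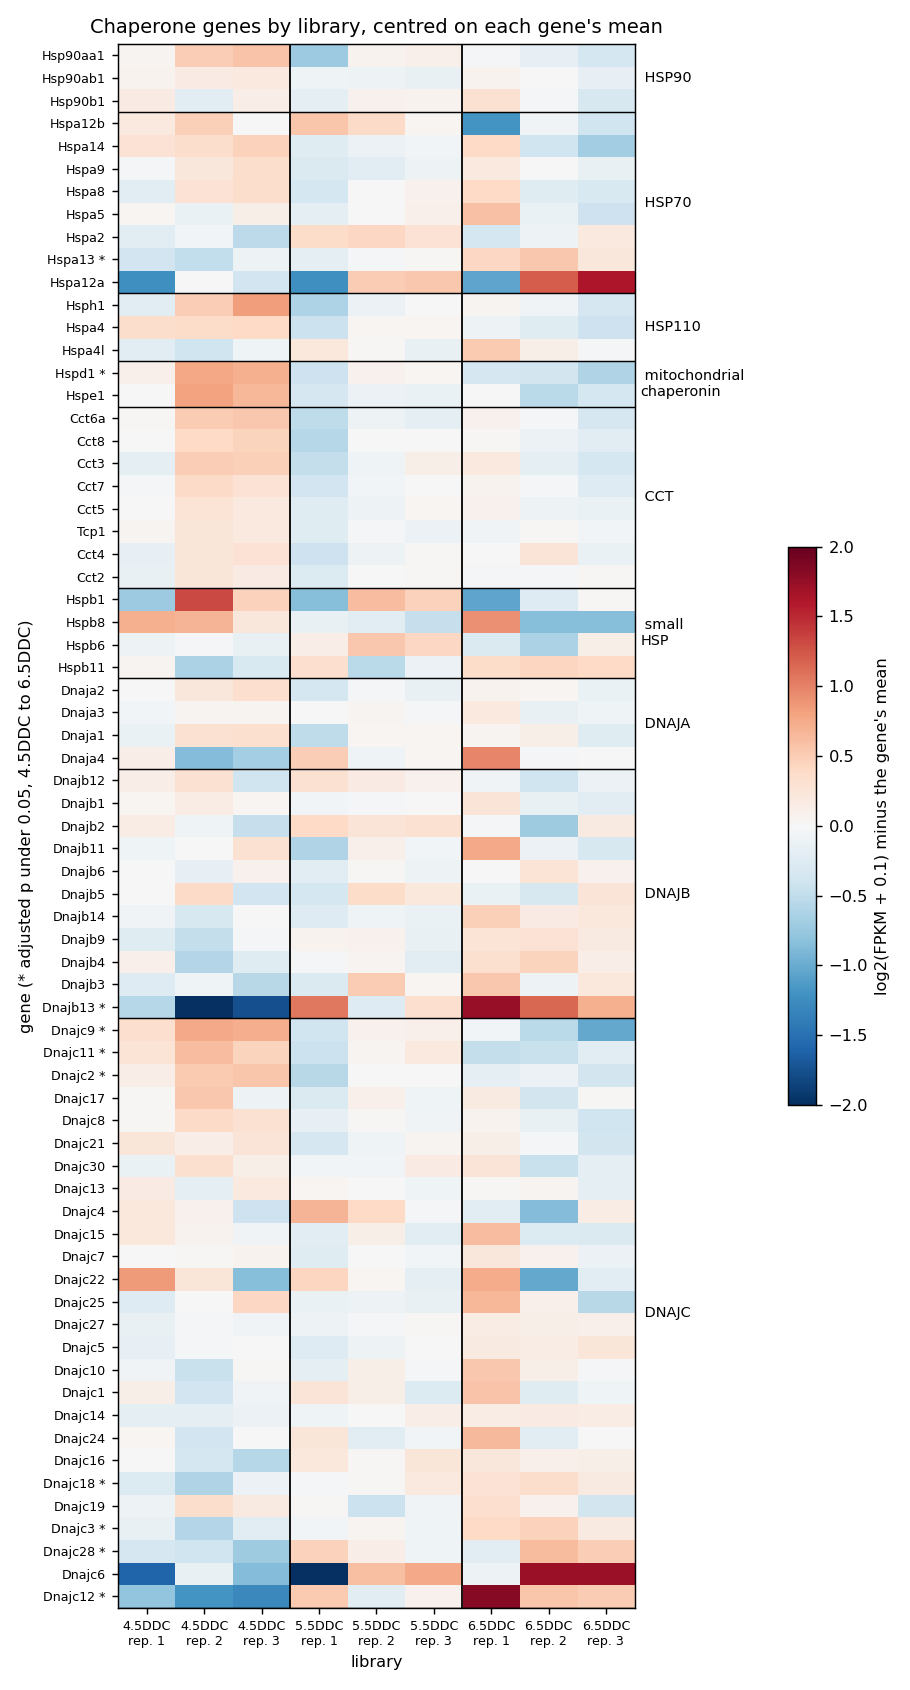
Each tested chaperone gene (rows, by class and by fold change, pseudogene symbols left out) in the 9 libraries (columns, rep. is the replicate number), coloured by log2(FPKM + 0.1) minus the mean of the gene, with red higher and blue lower and values past 2 drawn at the end of the scale. Most rows are pale, Dnajb13 and Dnajc12 run from blue to red over time, and Hspa12a and Dnajc6 are lowest in replicate 1 at each time point.

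Of the 87 members, 72 passed the filter on low counts and were tested, and of the 15 left out 5 had no count in any library. At this depth no count in any library allows up to 3 counts, or 0.118 to 0.271 CPM (counts scaled to the library total) by library, and this limit covers counting error only. Those 5 were Cct8l1, Dnajb7, Dnajb8, Dnajc5g and Hspb9. From 4.5DDC to 6.5DDC, 10 of the 72 tested members passed an adjusted p of 0.05 (edgeR, adjusted over all 14742 genes tested), or 13.9%, where 18.7% of all tested genes did. Dnajb13, Dnajc12, Dnajc28, Dnajc3, Hspa13 and Dnajc18 rose, 8.33% of tested members beside 9.21% of all genes. Hspd1, Dnajc9, Dnajc11 and Dnajc2 fell, 5.56% of tested members beside 9.53% of all genes. The libraries of 4.5DDC and 6.5DDC did not overlap in log2 CPM for 23 of the 72 members, or 31.9%, against 35.1% of all genes. In each of these counts the share among members was below that among all genes, a difference that was not tested. Without replicate 2 of 4.5DDC, and likewise without replicate 2 of 6.5DDC, only Dnajb13, Dnajc12 and Dnajc11 of the members were called. Over all genes the calls fell as well, from 2763 in either direction to 1152 without the first of these libraries and 1125 without the other.

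The 4 falls included the ring subunit of the mitochondrial chaperonin. Hspd1 (chr1:55077835-55088243, minus strand) had 98.9, 157 and 150.4 FPKM at 4.5DDC, 68.8, 97.7 and 93.8 at 5.5DDC and 72.4, 71.4 and 60.5 at 6.5DDC. Every library at 4.5DDC lay above every library at 6.5DDC, and Hspd1 fell by 1.02 ± 0.23 (SE) on the log2 scale (adjusted p = 0.015). Its lid Hspe1 (chr1:55088132-55091307, plus strand), which shares the promoter stretch printed above, had 64.6, 113 and 103 FPKM at 4.5DDC, 51.4, 59.7 and 58.9 at 5.5DDC and 65.01, 44.5 and 50.4 at 6.5DDC, and was not called (log2 fold change -0.64 ± 0.26 (SE), adjusted p = 0.11). It was called lower on log2 FPKM with either pseudocount and without replicate 1 of 4.5DDC (adjusted p over all alternatives 0.03 to 0.29). In replicate 1 the level of Hspe1 at 6.5DDC was close to that at 4.5DDC (65.01 and 64.6 FPKM), whereas replicates 2 and 3 were lower at 6.5DDC. The call of Hspd1 was lost without replicate 2 of 4.5DDC or without replicate 2 of 6.5DDC (adjusted p over all alternatives 0.00061 to 0.06).

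Dnajc9, a J-domain protein that also binds histones H3 and H4 (chr14:20384638-20388910, minus strand), had 84.2, 113 and 110.0 FPKM at 4.5DDC, 50.6, 70.3 and 71.3 at 5.5DDC and 63.9, 45.6 and 32.6 at 6.5DDC (log2 fold change -1.12 ± 0.26 (SE), adjusted p = 0.019). Dnajc11, a J-domain protein of the outer mitochondrial membrane (chr4:151933691-151982137, plus strand), had 77.9, 98.2 and 87.6 FPKM at 4.5DDC, 47.7, 66.7 and 73.2 at 5.5DDC and 46.01, 47.1 and 55.4 at 6.5DDC (log2 fold change -0.96 ± 0.18 (SE), adjusted p = 0.0078). Dnajc2, which sits on ribosomes together with the HSP70 Hspa14 (chr5:21757267-21785251, minus strand), had 36.05, 47.3 and 48.2 FPKM at 4.5DDC, 22.3, 32.9 and 32.8 at 5.5DDC and 28.7, 30.05 and 25.2 at 6.5DDC (log2 fold change -0.66 ± 0.18 (SE), adjusted p = 0.033). In each of the 3 genes all libraries at 6.5DDC lay below all libraries at 4.5DDC. The partner Hspa14 had 27.4, 28.8 and 30.9 FPKM at 4.5DDC, 18.9, 20.7 and 21.7 at 5.5DDC and 29.8, 16.9 and 13.9 at 6.5DDC and was not called (log2 fold change -0.62 ± 0.25 (SE), adjusted p = 0.11), its replicate 1 at 6.5DDC lying near the level of 4.5DDC. Without that library Hspa14 was called lower (adjusted p over all alternatives 0.007 to 0.28). Of these falls, that of Dnajc11 was called under all 21 alternatives, that of Dnajc9 under 18 (lost without replicate 2 or 3 of 4.5DDC or replicate 2 of 6.5DDC, adjusted p 0.00085 to 0.072) and that of Dnajc2 under 15 (lost without replicate 2 or 3 of any time point, adjusted p 0.011 to 0.1).

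The rises were led by a gene of motile cilia. Dnajb13, a J-domain protein of the radial spokes of cilia and flagella (chr7:100501716-100514960, minus strand), had 2.505, 0.625 and 1.04 FPKM at 4.5DDC, 7.88, 3.13 and 4.77 at 5.5DDC and 12.8, 8.48 and 6.23 at 6.5DDC. Replicate 1 was highest at every time point, and the libraries of 4.5DDC and 6.5DDC did not overlap (log2 fold change 2.75 ± 0.54 (SE), adjusted p = 0.0094). Without single libraries this estimate ran from 2.38 to 3.36. Within replicate numbers the log2 difference was 2.47 within replicate 1 and 3.00 within replicates 2 and 3. Of 9 other motile cilium markers 7 were in the tables and 6 were tested, and their summed level was 18.1 to 38.2 FPKM at 4.5DDC, 36.7 to 77.7 at 5.5DDC and 45.7 to 53.3 at 6.5DDC. All 6 had a positive log2 fold change (median 1.04) but only Tekt1, a tektin of the ciliary shaft, was called (log2 fold change 1.70 ± 0.51 (SE), adjusted p = 0.046), and under 12 of 21 alternatives. Foxj1, the regulator of motile cilia, had 8.97, 5.04 and 2.31 FPKM at 4.5DDC, 23.8, 11.2 and 10.6 at 5.5DDC and 14.3, 6.56 and 13.7 at 6.5DDC and was not called (log2 fold change 1.08 ± 0.48 (SE), adjusted p = 0.14). The part of ciliated cells in the level of Dnajb13 was not tested.

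Dnajc12, a J-domain protein that binds the hydroxylases of aromatic amino acids (chr10:63382443-63410576, plus strand), had 19.3, 14.5 and 13.7 FPKM at 4.5DDC, 48.04, 28.98 and 35.7 at 5.5DDC and 119, 49.4 and 47.5 at 6.5DDC. It rose by 2.25 ± 0.37 (SE) on the log2 scale (adjusted p = 0.005), with replicate 1 at 6.5DDC more than the other 2 libraries together. The rise was 2.76 within replicate 1 and 1.79 within replicates 2 and 3, so it was present on both sides. Dnajc28 (chr16:91614254-91619026, minus strand) had 1.98, 1.89 and 1.51 FPKM at 4.5DDC, 3.54, 2.795 and 2.39 at 5.5DDC and 2.19, 4.01 and 3.62 at 6.5DDC (log2 fold change 1.26 ± 0.28 (SE), adjusted p = 0.016). Its libraries did not overlap, but replicate 1 was lower at 6.5DDC than at 5.5DDC, and it was not called by limma on log2(FPKM + 1) and log2(FPKM + 0.1), where the estimates were 0.59 and 0.80, or without replicate 2 of 4.5DDC or of 6.5DDC (adjusted p over all alternatives 0.00053 to 0.085). Dnajc18 had 8.695, 6.86 and 9.67 FPKM at 4.5DDC, 10.2, 10.7 and 12.01 at 5.5DDC and 12.9, 13.4 and 11.9 at 6.5DDC (log2 fold change 0.58 ± 0.17 (SE), adjusted p = 0.038), a rise of like size in replicate 1 (0.62) and in replicates 2 and 3 (0.58). It was called under 14 of 21 alternatives, and not on the 6 libraries compared alone or without replicate 1 or 2 of 4.5DDC, 2 or 3 of 5.5DDC, or 1 or 2 of 6.5DDC (adjusted p 0.012 to 0.13). Dnajb13 and Dnajc12 were called under all 21.

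**Figure D2:**
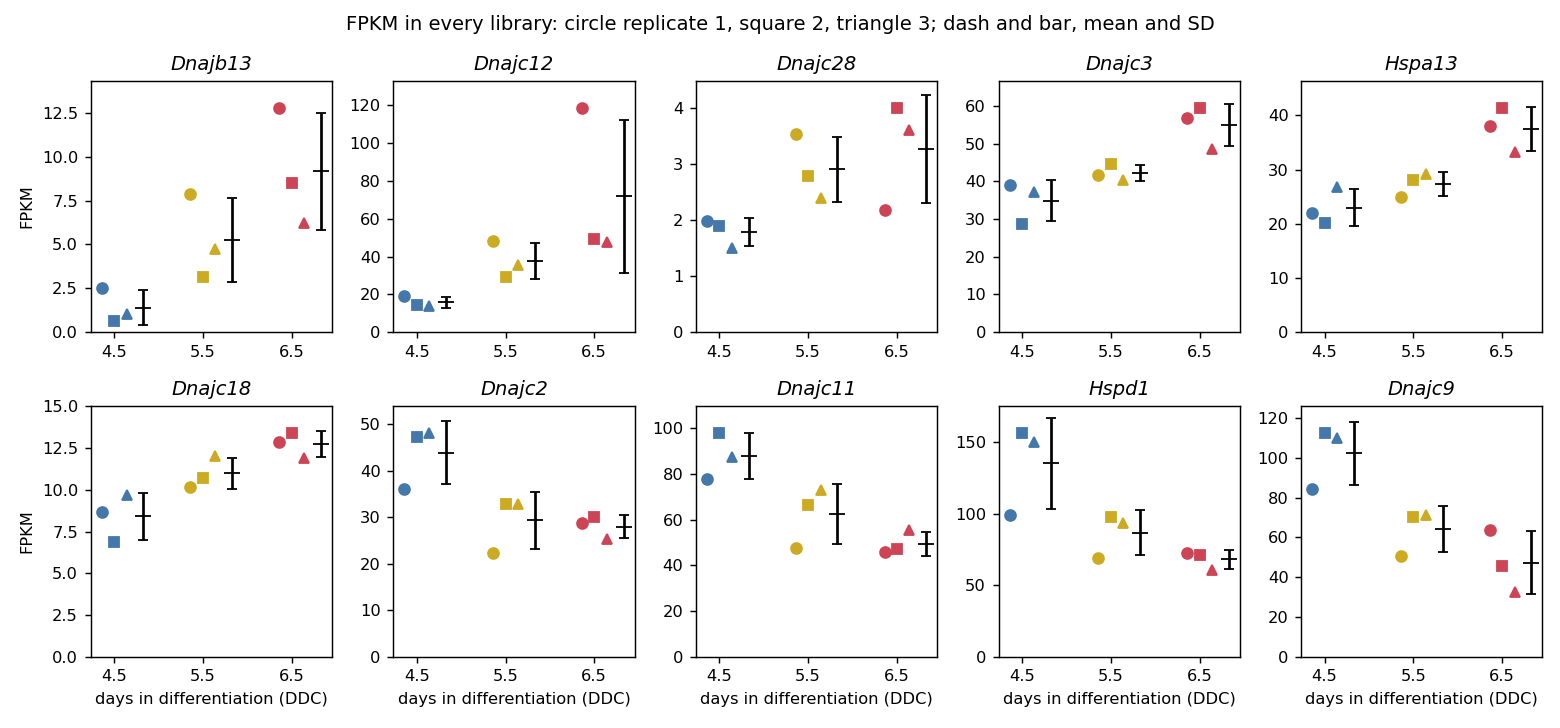
FPKM (vertical axes, each starting at 0) of the 10 members called from 4.5DDC to 6.5DDC, in every library by time point, with the marker shape giving the replicate number and the dash and bar the mean and SD of the 3 libraries. The upper row and Dnajc18 are higher at 6.5DDC and the other 4 genes lower, and Dnajc12 at 6.5DDC shows replicate 1 at 119 FPKM far above the other 2 libraries.

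Among 8 members listed as ER chaperones, 7 had a positive log2 fold change from 4.5DDC to 6.5DDC and 2 rose. The median of the 8 was 0.29 beside 0.004 over all tested genes. They were Hsp90b1, Hspa5, Hspa13, Dnajb9, Dnajb11, Dnajc1, Dnajc3 and Dnajc10, a list drawn up by hand that may leave out other members found in the ER. The 2 rises are 25% of these 8 genes, beside 9.21% of all genes. Within replicates 1, 2 and 3 the medians were 0.59, 0.50 and -0.25, and in replicate 3 5 of the 8 genes were lower. The numbers did not pair libraries of replicates 2 and 3 over this span, so their separate medians rest on an arbitrary match. Dnajc3, an ER co-chaperone of Hspa5 that also inhibits the stress kinase PERK (chr14:118937976-118981697, plus strand), had 39.01, 28.7 and 37.1 FPKM at 4.5DDC, 41.7, 44.6 and 40.5 at 5.5DDC and 56.8, 59.5 and 48.6 at 6.5DDC (log2 fold change 0.64 ± 0.16 (SE), adjusted p = 0.023). Hspa13, a short HSP70 of microsomes (chr16:75745431-75767104, minus strand), had 21.9, 20.2 and 26.7 FPKM at 4.5DDC, 24.9, 28.02 and 29.2 at 5.5DDC and 38.02, 41.4 and 33.3 at 6.5DDC (log2 fold change 0.64 ± 0.16 (SE), adjusted p = 0.025). In FPKM both genes were higher at each step in all 3 replicate numbers, and their libraries at 6.5DDC all lay above those at 4.5DDC. Both lost their call without replicate 2 of 4.5DDC or without replicate 2 of 6.5DDC, and Hspa13 also without replicate 1 of 4.5DDC. Dnajb9, an ER J-domain protein induced by stress, had 13.6, 11.6 and 15.8 FPKM at 4.5DDC, 16.9, 17.2 and 14.7 at 5.5DDC and 19.6, 19.9 and 18.4 at 6.5DDC with no overlap between those groups either, and was not called (log2 fold change 0.51 ± 0.18 (SE), adjusted p = 0.073). It was called by DESeq2, on log2(FPKM + 0.1) and without replicate 3 of 4.5DDC (adjusted p over all alternatives 0.038 to 0.23).

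The abundant ER chaperones were not called. Hspa5 (log2 fold change 0.053 ± 0.25 (SE), adjusted p = 0.9) and Hsp90b1 (-0.0078 ± 0.20 (SE), adjusted p = 0.98), the 2 other carriers of the ER stress element, had estimates near 0. Dnajb11, the J-domain partner of Hspa5 in the ER lumen, had 98.4, 104 and 129 FPKM at 4.5DDC, 69.1, 113 and 101 at 5.5DDC and 177, 95.8 and 83.8 at 6.5DDC (log2 fold change 0.036 ± 0.30 (SE), adjusted p = 0.94). At 6.5DDC these 3 genes were highest in replicate 1 and lower in replicates 2 and 3. Over the 23 other genes of ER folding and the unfolded protein response, the summed level at 6.5DDC was likewise 4078 FPKM in replicate 1 and 2667 and 2407 FPKM in replicates 2 and 3, where it had been 2902 to 2976 FPKM at 4.5DDC. Of those 23 genes Atf6, a sensor of unfolded proteins (log2 fold change 0.65 ± 0.15 (SE), adjusted p = 0.018), and Sel1l, an adaptor of ER-associated degradation (log2 fold change 0.76 ± 0.17 (SE), adjusted p = 0.016), rose, under 19 and 20 of 21 alternatives. None fell, and those that rose made up a share of 8.696% close to the 9.21% of all genes called higher. The median log2 fold change of the 23 genes was 0.044. Ddit3 and Xbp1, markers of an active response, had log2 fold changes of 0.12 ± 0.29 (SE) and 0.10 ± 0.18 (SE).

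Between pairs of time points no subunit of CCT was called under the settings tried, and over all 3 time points together DESeq2 called Cct6a. The 8 tested genes all had a negative log2 fold change from 4.5DDC to 6.5DDC, from -0.46 for Cct6a to -0.11 for Cct2 (median -0.27), where 49.8% of all genes were negative. Cct8, the leading subunit, had 334, 435 and 452 FPKM at 4.5DDC, 223, 331 and 333 at 5.5DDC and 337, 306 and 288 at 6.5DDC (log2 fold change -0.43 ± 0.19 (SE), adjusted p = 0.13). The lower level was present by 5.5DDC: from 4.5DDC to 5.5DDC all 8 subunits were lower in each of the 3 replicate numbers, with medians of -0.32, -0.41 and -0.44 in replicates 1, 2 and 3. From 5.5DDC to 6.5DDC all 8 were higher in replicate 1 and all 8 lower in replicate 3 (medians 0.51, 0.049 and -0.20). Over the whole span the median was 0.15 within replicate 1, where all 8 were higher, and -0.47 within replicates 2 and 3. The sign for the class thus rests on replicates 2 and 3. Cct6b was near 0 (0.175 FPKM on average). Of 10 chaperonin partners (prefoldin subunits, which hand actin and tubulin to CCT, and phosducin-like proteins), 9 were tested and none was called, with a median of 0.13.

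Hsp90aa1, the inducible cytosolic HSP90 (chr12:110690605-110702728, minus strand), had 441, 596 and 629 FPKM at 4.5DDC, 257, 444 and 452 at 5.5DDC and 411, 377 and 331 at 6.5DDC. It was not called (log2 fold change -0.56 ± 0.23 (SE), adjusted p = 0.12), nor was Hsp90ab1 (log2 fold change -0.27 ± 0.13 (SE), adjusted p = 0.17), although the libraries of 4.5DDC and 6.5DDC did not overlap in FPKM for either gene. In log2 CPM the libraries of Hsp90aa1 did overlap, and those of Hsp90ab1 did not. In HSP110, whose members recharge HSP70 with ATP, estimates were lower for Hsph1 (log2 fold change -0.46 ± 0.30 (SE), adjusted p = 0.29) and Hspa4 (log2 fold change -0.45 ± 0.19 (SE), adjusted p = 0.12) and higher for Hspa4l (log2 fold change 0.59 ± 0.21 (SE), adjusted p = 0.075). Leaving out single libraries moved Hsph1 between -0.71 (without replicate 1 of 4.5DDC) and -0.11 (without replicate 3 of 4.5DDC). Hspa4, the most abundant of them, had 186, 188 and 193 FPKM at 4.5DDC, 108, 150.0 and 150.0 at 5.5DDC and 135, 123 and 109.8 at 6.5DDC. It was called lower on log2 FPKM with either pseudocount (adjusted p over all alternatives 0.026 to 0.3), and Hspa4l was called higher by DESeq2, under the replicate block (adjusted p = 0.048), although the numbers did not pair 4.5DDC with 6.5DDC in replicates 2 and 3, and when replicate 3 of 6.5DDC was left out (range over all alternatives 0.026 to 0.24). A block for replicate 1 against replicates 2 and 3, chosen after seeing the data, called Hspa4l higher as well (adjusted p = 0.026). Hspa8 had a log2 fold change of -0.08 ± 0.26 (SE) (adjusted p = 0.85) and Hspa9, the mitochondrial HSP70, one of -0.19 ± 0.16 (SE) (adjusted p = 0.43).

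None of the stress-inducible members was called. Hspa1a and Hspa1b, the classical heat shock HSP70 genes, had at most 0.275 and 0.218 FPKM in any library and were not tested, and reads shared by these near-identical neighbours could have been split or dropped. Hspb1, the best known small heat shock protein, was low, with 1.14, 5.03 and 2.74 FPKM at 4.5DDC, 1.03, 3.03 and 2.74 at 5.5DDC and 0.893, 1.62 and 1.99 at 6.5DDC (log2 fold change -1.32 ± 0.63 (SE), adjusted p = 0.16). Its FPKM was lowest in replicate 1 at each time point, while its counts were few (4 to 27 per library) and not lowest there in log2 CPM at 6.5DDC, and its estimate ran from -1.81 without replicate 3 of 6.5DDC to -0.61 without replicate 2 of 4.5DDC. Of the 6 tested genes of this group (Hsp90aa1, Hsph1, Hspb1, Dnaja4, Dnajb1 and Dnajb4) none was called, 2 had a positive and 4 a negative log2 fold change, and the median was -0.29. Dnajb1, the main cytosolic partner of heat-induced HSP70, had 23.2, 24.9 and 23.2 FPKM at 4.5DDC, 21.7, 21.9 and 22.7 at 5.5DDC and 26.9, 20.3 and 19.2 at 6.5DDC (log2 fold change -0.11 ± 0.16 (SE), adjusted p = 0.66). Dnajb4 (log2 fold change 0.53 ± 0.19 (SE), adjusted p = 0.072) and Dnaja4 (log2 fold change 0.81 ± 0.40 (SE), adjusted p = 0.17) had the positive estimates, that of Dnaja4 running from 0.34 without replicate 1 of 6.5DDC to 1.17 without replicate 1 of 4.5DDC. With the replicate block, whose pairing did not hold over this span, Dnaja4 was called higher (adjusted p = 0.035). The block for replicate 1 against replicates 2 and 3 called Dnaja4 (adjusted p = 0.020) and Dnajb4 (adjusted p = 0.039) higher. DESeq2 also called Dnajb4 higher (adjusted p = 0.042). Over all alternatives the adjusted p ran from 0.02 to 0.52 for Dnaja4 and from 0.039 to 0.22 for Dnajb4. Of the heat shock factors, Hsf1 (10.03 ± 1.99 FPKM at 4.5DDC, SD, n = 3) and Hsf2 (32.4 ± 2.26 FPKM) were tested and not called, Hsf3, Hsf4 and Hsf5 were below 1 FPKM in every library. Hsbp1, which binds and restrains Hsf1, rose (log2 fold change 0.51 ± 0.15 (SE), adjusted p = 0.041), a call made under 12 of 21 alternatives. Of 18 immediate early genes, which handling and sorting can induce, 16 were tested, Egr1, Klf6 and Btg2 rose and none fell, 3 of 16 or 18.75% beside 9.21% of all genes, with calls under 20, 20 and 11 of 21 alternatives. Their summed level was 99.6 to 115 FPKM at 4.5DDC, 138 to 194 at 5.5DDC and 159 to 178 at 6.5DDC, and its part in the values of the members was not tested.

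The other small heat shock proteins and J-domain genes held no call. Hspb11, the ciliary transport subunit, had 36.8, 22.8 and 28.5 FPKM at 4.5DDC, 44.5, 24.2 and 32.7 at 5.5DDC and 45.8, 47.4 and 46.3 at 6.5DDC. All libraries of 6.5DDC lay above those of 4.5DDC, without a call (log2 fold change 0.66 ± 0.24 (SE), adjusted p = 0.08), and with the replicate block, subject to the same limit, it was called higher (adjusted p = 0.039), as it was by DESeq2 without a block (adjusted p over all alternatives 0.018 to 0.24). The block for replicate 1 against replicates 2 and 3 called Hspb11 higher too (adjusted p = 0.018). Hspb8, a partner of the co-chaperone Bag3, had 5.59, 5.45 and 3.98 FPKM at 4.5DDC, 3.02, 2.87 and 2.42 at 5.5DDC and 6.41, 1.82 and 1.83 at 6.5DDC (log2 fold change -0.75 ± 0.43 (SE), adjusted p = 0.24). Replicate 1 of 6.5DDC stood apart, and without it Hspb8 was called lower (adjusted p over all alternatives 0.009 to 0.54). Dnajc7, the most abundant J-domain gene, which binds both HSP70 and HSP90, had 414, 422 and 435 FPKM at 4.5DDC, 351, 414 and 399 at 5.5DDC and 482, 439.8 and 380.1 at 6.5DDC and a log2 fold change near 0 (0.03 ± 0.14 (SE), adjusted p = 0.9). Dnaja1, a cytosolic partner of Hspa8, had 64.5, 87.6 and 88.97 FPKM at 4.5DDC, 49.9, 72.5 and 73.1 at 5.5DDC and 73.5, 77.1 and 59.9 at 6.5DDC (log2 fold change 0.10 ± 0.17 (SE), adjusted p = 0.71). The libraries of both genes overlapped between 4.5DDC and 6.5DDC. Dnajc8, a J-domain protein of the nucleus, had 104, 133 and 126 FPKM at 4.5DDC, 91.005, 104 and 97.6 at 5.5DDC and 108, 92.6 and 77.3 at 6.5DDC (log2 fold change -0.43 ± 0.15 (SE), adjusted p = 0.078). It was called lower without replicate 1 of 6.5DDC, with scaling by library totals alone and by limma voom without normalization (adjusted p over all alternatives 0.026 to 0.21). Dnajc5, the cysteine string protein of synaptic vesicles, had 40.1, 43.96 and 44.4 FPKM at 4.5DDC, 37.4, 41.6 and 44.5 at 5.5DDC and 50.6, 49.9 and 53.1 at 6.5DDC, with all libraries of 6.5DDC above those of 4.5DDC and no call (log2 fold change 0.23 ± 0.13 (SE), adjusted p = 0.24). The same held for Dnajc14 (log2 fold change 0.31 ± 0.12 (SE), adjusted p = 0.091) and Dnajb14 (log2 fold change 0.41 ± 0.16 (SE), adjusted p = 0.1), and of these only Dnajc14 was called by DESeq2 (0.047 to 0.23 over all alternatives).

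By class, the estimates over the whole span ranged from a median of -0.83 for the 2 mitochondrial chaperonin genes to 0.14 for the 26 tested DNAJC genes. The median of DNAJC was -0.045 without replicate 1 of 6.5DDC. Small heat shock proteins (-0.46, 4 genes), HSP110 (-0.45, 3), CCT (-0.27, 8) and HSP90 (-0.27, 3) lay below 0, HSP70 (-0.013, 8) and DNAJA (0.031, 4) near it, and DNAJB (0.11, 11) above it. In replicate 1 the median of every class was near or above 0. It was 0.26 for HSP70, 0.15 for CCT, 0.28 for DNAJA, 0.39 for DNAJB and 0.37 for DNAJC. For HSP70 it was -0.094 and -0.50 within replicates 2 and 3. Within replicates 1, 2 and 3 the medians were 0.47, -0.32 and -0.98 for HSP110 and 0.0031, -0.42 and -0.62 for HSP90. They were -0.015, -1.14 and -0.10 for small heat shock proteins and -0.016, -1.13 and -1.25 for the mitochondrial chaperonin. Over this span the numbers did not pair libraries of replicates 2 and 3, so the separate medians of replicates 2 and 3 rest on an arbitrary match. Of 10 calls, 8 fell on the 41 tested J-domain genes, 5 of them higher and 3 lower, 1 on HSP70 and 1 on the mitochondrial chaperonin. The 8 calls are 19.5% of the tested J-domain genes, close to the 18.7% of all genes. In HSP90, HSP110, CCT, DNAJA and the small heat shock proteins none was called. These medians describe the classes and were not tested, since the genes of a class are not replicates. The summed level of the 8 CCT genes and their 2 relatives was 2280.1 ± 337 FPKM at 4.5DDC, 1777 ± 244 at 5.5DDC and 1890.2 ± 144 at 6.5DDC (SD, n = 3), that of HSP70 1780.0 ± 223 FPKM at 4.5DDC, 1578 ± 195 at 5.5DDC and 1687 ± 493 at 6.5DDC, and that of the mitochondrial chaperonin 229 ± 57.1 FPKM at 4.5DDC, 143 ± 20.3 at 5.5DDC and 121 ± 14.04 at 6.5DDC. Among these 3 sums all libraries of 6.5DDC lay below all of 4.5DDC for the mitochondrial chaperonin only. The HSP110 sum separated in the same direction, with 250 to 293 FPKM at 4.5DDC and 175 to 227 at 6.5DDC. That of the small heat shock proteins separated upward, with 36.5 to 46.5 FPKM at 4.5DDC and 52.6 to 55.5 at 6.5DDC.

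**Figure D3:**
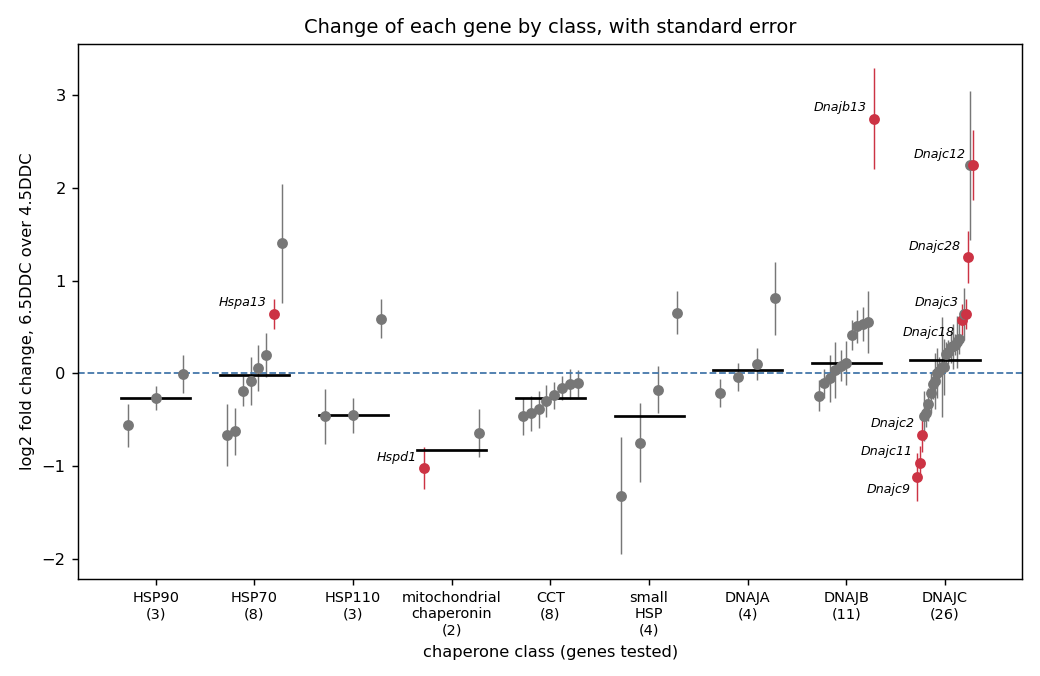
Log2 fold change from 4.5DDC to 6.5DDC (vertical axis) of every tested member other than pseudogene symbols, by class (horizontal axis, number of genes in brackets), with the standard error as a bar, called genes in red and named, the class median as a black line and the median of all tested genes as a dashed line. Chaperonin genes sit below 0, while J-domain genes, 41 of the 72 tested members, spread to both sides and hold 8 of the 10 calls.

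Replicate 1 ran apart from replicates 2 and 3. Over all 72 tested members the median log2 difference from 4.5DDC to 6.5DDC was 0.26 within replicate 1 and -0.24 within replicates 2 and 3, while over all genes the medians were 0.019 and -0.018. The gap lay from 5.5DDC to 6.5DDC, where 61 of 72 members were higher in replicate 1, 38 in replicate 2 and 23 in replicate 3 (medians 0.44, 0.036 and -0.10). From 4.5DDC to 5.5DDC the medians were -0.14, 0.0069 and -0.21. Members on 1 side in replicate 1 at all 3 time points, read in log2 CPM, made up a smaller share than among all genes: 6 were higher there (Dnaja4, Dnajb13, Dnajc12, Dnajc16, Dnajc22 and Hspb11), or 8.33% against 11.1% of all genes, and 2 lower (Dnajc6 and Hspa12a), or 2.78% against 12.5%. In FPKM the side differed for Hspb11 at 6.5DDC, and Hspb1 was also lower at all 3 time points, as given above. Summed endoderm markers (8 of 8 in the tables, 4 tested, none called) were 16.9 FPKM in replicate 1 of 6.5DDC and 3.46 and 2.97 FPKM in replicates 2 and 3, against 1.35 to 5.69 FPKM at the earlier times. Summed mesenchyme markers (7 tested, all with a positive log2 fold change over the span) were 7.09 to 15.3 FPKM at 4.5DDC, 12.7 to 28.3 at 5.5DDC and 18.2 to 55.8 at 6.5DDC, lowest in replicate 1 each time. Of these Twist1 was called (log2 fold change 0.74 ± 0.19 (SE), adjusted p = 0.028), under 14 of 21 alternatives. Neuron marker sums averaged 493, 642 and 819 FPKM at 4.5, 5.5 and 6.5DDC. Of 11 tested neuron markers edgeR called 2 higher and 1 lower, or 18.2% and 9.09% beside 9.21% and 9.53% of all genes. They were Syt1 (log2 fold change 3.19, adjusted p = 0.0013), Map2 (1.65, adjusted p = 0.0077) and Isl1 (-2.44, adjusted p = 0.0017). Each was called under all 21 alternatives. Of 11 tested neural progenitor markers the sort marker Prom1 rose by edgeR (log2 fold change 1.19, adjusted p = 0.0036, under all 21 alternatives). Sox3 fell (log2 fold change -1.80, adjusted p = 0.033, under 14 of 21). These are 9.09% each, beside 9.21% and 9.53% of all genes. The part of endoderm cells, mesenchyme or neurons in the values of the members was not tested.

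Hspa12a and Dnajc6 were the members lower in replicate 1 at all 3 time points in log2 CPM. Hspa12a, a distant HSP70 relative (chr19:58795750-58943654, minus strand), had 2.85, 6.902 and 5.24 FPKM at 4.5DDC, 2.87, 9.76 and 10.002 at 5.5DDC and 3.25, 15.9 and 21.1 at 6.5DDC. It stayed at one level in replicate 1 and was higher at each step in replicates 2 and 3 (log2 difference over the span 0.25 within replicate 1 and 1.57 within replicates 2 and 3). Dnajc6, the auxilin that strips clathrin from vesicles in neurons (chr4:101496648-101642799, plus strand), had 0.307, 1.02 and 0.579 FPKM at 4.5DDC, 0.189, 1.78 and 1.99 at 5.5DDC and 1.05, 3.99 and 4.01 at 6.5DDC. Both were below every library of replicates 2 and 3 at the same time point, as were the neuron marker sums above, and the part of neurons in their levels was not tested. In the fit without a block neither was called (adjusted p = 0.15 and 0.077), and both were called higher over the whole span with the replicate block, whose pairing did not hold over that span, at adjusted p = 0.014 and 0.005, where the ranges over all alternatives were 0.0061 to 0.35 and 0.0019 to 0.2. The block for replicate 1 against replicates 2 and 3 called both higher too (adjusted p = 0.0061 and 0.0019). Both were also called without replicate 1 of 6.5DDC, and Dnajc6 without replicate 1 of 5.5DDC, on the 6 libraries compared alone, with no filter on low counts and by DESeq2.

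**Figure D4:**
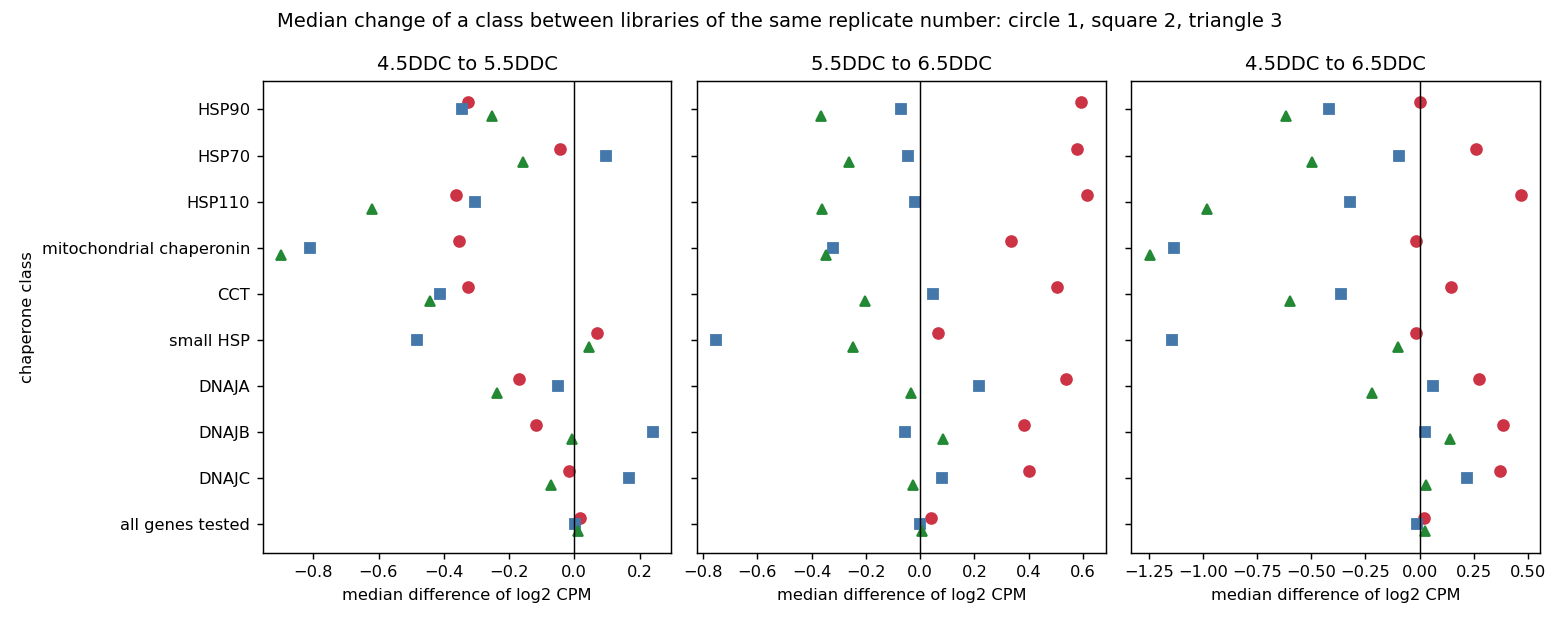
Median difference of log2 CPM (horizontal axes) over the tested genes of each class and over all genes, taken between libraries of the same replicate number for the 3 pairs of time points, with circles for replicate 1, squares for replicate 2 and triangles for replicate 3. In the middle panel replicate 1 lies to the right of the other replicates in every class, and over all genes the 3 numbers lie close to 0.

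By edgeR and limma voom without a block, no member passed in either single interval. From 4.5DDC to 5.5DDC 0 of 72 members were called by edgeR or limma voom, where 0.0746% of all genes were by edgeR, and 21 members had an unadjusted p under 0.05, or 29.2% against 15.4% of all genes. Among these 21 were the CCT genes Cct3, Cct6a, Cct7, Cct8 and Tcp1, both mitochondrial chaperonin genes, Hsp90aa1, Hspa4, Hspa9 and Hspa14, all with lower estimates at 5.5DDC. DESeq2 called Dnajb13 and Dnajc12 higher and Hspd1 lower in this interval, where over all genes it called 291 higher and 204 lower. From 5.5DDC to 6.5DDC 0 of 72 were called by edgeR, limma voom or DESeq2, where edgeR called 0.224% of all genes, and 7 members had an unadjusted p under 0.05, or 9.72% against 18.5%. Those 7 were Dnajb14, Dnajc11, Dnajc12, Dnajc3, Dnajc5, Hspa13 and Hspb6.

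Same-numbered libraries of neighbouring time points deviated together, as replicates 2 and 3 did with each other, and the paired fit moved these counts. With the replicate block, Dnajb13 (log2 fold change 1.99 ± 0.36 (SE), adjusted p = 0.035) and Dnajc12 (1.16 ± 0.22 (SE), adjusted p = 0.038) rose from 4.5DDC to 5.5DDC, 2 of 72 members or 2.78% beside 1.44% of all genes. Over the alternatives the adjusted p of this interval ran from 0.014 to 0.46 for Dnajb13 and from 0.015 to 0.49 for Dnajc12. From 5.5DDC to 6.5DDC the block called none of the members and 1.32% of all genes. Over all 3 time points 6 of 72 members differed by edgeR, or 8.33% beside 9.63% of all genes, namely Dnajb13, Dnajc12, Dnajc28, Dnajc11, Dnajc9 and Hspd1. None of these 6 was called without replicate 2 of 4.5DDC, and 1 to 3 members were without replicate 3 of 4.5DDC, 2 or 3 of 5.5DDC or 2 or 3 of 6.5DDC. No member and 0% of all genes changed by a different amount in the 2 intervals by edgeR, and limma voom and DESeq2 also called none. At an unadjusted p under 0.05 edgeR had 6 of 72 members in that test, or 8.33%, beside 4.76% of all genes.

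Partners of HSP90 and HSP70 and other folding factors give the setting of these values. Of 27 co-chaperone genes outside the symbol rule, all tested, 22 had a negative log2 fold change over the whole span (median -0.38), where 49.8% of all genes did, 5 fell and 1 rose. These are 18.5% lower and 3.704% higher, beside 9.53% and 9.21% of all genes. The median was -0.072 within replicate 1 and -0.45 within replicates 2 and 3. Fkbp5, an immunophilin that binds HSP90 in steroid receptor complexes, had 37.04, 38.1 and 41.5 FPKM at 4.5DDC, 18.5, 28.98 and 27.9 at 5.5DDC and 25.8, 16.1 and 16.2 at 6.5DDC (log2 fold change -1.21 ± 0.21 (SE), adjusted p = 0.0063). Its relative Fkbp4 fell as well (log2 fold change -0.66 ± 0.17 (SE), adjusted p = 0.028). Cdc37, which brings kinases to HSP90 (log2 fold change -0.73 ± 0.19 (SE), adjusted p = 0.029), Ahsa1, which speeds its ATPase (log2 fold change -0.49 ± 0.15 (SE), adjusted p = 0.048), and Stub1, the ubiquitin ligase of chaperone clients (log2 fold change -0.75 ± 0.23 (SE), adjusted p = 0.045), also fell. Sgtb, a co-chaperone with tetratricopeptide repeats, rose (log2 fold change 0.65 ± 0.19 (SE), adjusted p = 0.041). The fall of Fkbp5 was called under all 21 alternatives, and those of Cdc37, Fkbp4, Ahsa1 and Stub1 under 17, 15, 7 and 7. The rise of Sgtb was called under 10. Of 12 further mitochondrial chaperones and proteases 11 were tested, and the disaggregase Clpb (log2 fold change -0.56 ± 0.15 (SE), adjusted p = 0.033) and the protease Lonp1 (log2 fold change -0.79 ± 0.16 (SE), adjusted p = 0.011) fell, while Trap1, the mitochondrial HSP90, was not called (log2 fold change -0.29 ± 0.14 (SE), adjusted p = 0.15). These 2 are 18.2% of the 11, beside 9.53% of all genes. Lonp1 was called under all 21 alternatives and Clpb under 10. Of 8 members listed by hand as mitochondrial, 2 fell (Hspd1 and Dnajc11), or 25% beside 9.53% of all genes, with a median of -0.20. That median was 0.29 within replicate 1 and -0.44 within replicates 2 and 3.

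The counts of a few members rest on a small part of their reads. The counted reads were set against the reads that the FPKM and the summed exon length of the annotation imply, a ratio that is also low where the annotation holds exons the cells do not use. Its median was 65.6% over 13712 tested genes with a length and 58.9% over the 72 members. Hspa8 was counted at 1.11%, with 500 to 896 counts per library beside the third highest mean FPKM of all members, so its test rests on few of its reads. Its FPKM values overlapped between the groups. Below 10% lay also Dnajb6, Dnajc15 and the pseudogene symbol Cct3-ps1, with Dnajc19 (10.02%), Hsp90aa1 (10.6%) and Dnajc11 (12.5%) just above. The fall of Dnajc11 was also called on log2 FPKM, where reads are assigned differently. Of the 3 tested pseudogene symbols, Cct3-ps1, Hspa9-ps1 and Dnajc19-ps, none was called, and their reads cannot be told from those of the parent genes. The sources do not say whether counting used strand, so reads of a partner on the opposite strand may be included, which bears on Dnaja4 (44.1% of its exon length overlaps Wdr61) and on Dnajb13 (11.2%, Ucp2).

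**Figure D5:**
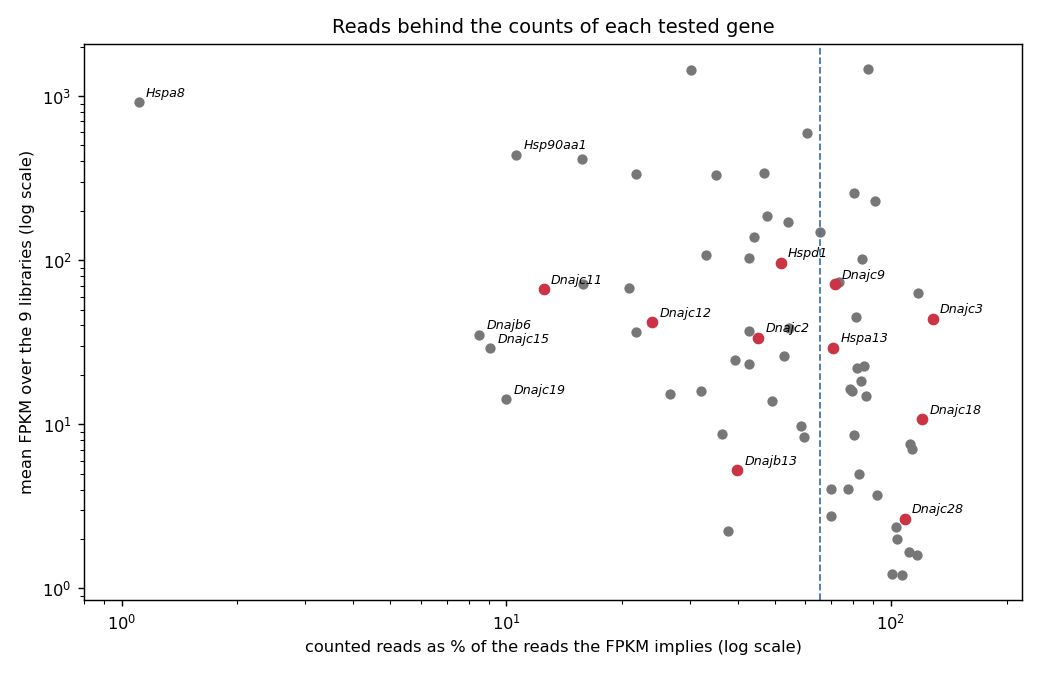
Counted reads as a percentage of the reads implied by FPKM and exon length (horizontal axis, log scale) against mean FPKM over the 9 libraries (vertical axis, log scale) for each tested member other than pseudogene symbols, with called members in red and the median of all tested genes as a dashed line. Hspa8 stands alone at the upper left at 1.11%, and of the called members Dnajc11 is farthest to the left.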

How the data were processed

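RNA of prominin-1-sorted NSCs at 4.5, 5.5 and 6.5DDC was measured by polyA-selected sequencing, in 9 libraries. Per the labels and methods, the authors mapped reads to GRCm38 with TopHat2 2.0.4 and counted them with HTSeq 0.6.1, and they did not normalize these counts. The annotation release and strand setting are not given in the sources used here. As 98 of 38197 symbols held values that are not whole, the deposited table was treated as estimated counts and rounded, although whole counts had been assumed when the tests were chosen. The deposited FPKM values came from Cufflinks 2.1.1 and were used as levels. The deposited log2 values were the authors' voom output and were only checked against the counts.

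Tests used edgeR 4.0.16 in R 4.3.3 (filterByExpr, TMM, quasi-likelihood, all 9 libraries, time point as factor) with Benjamini-Hochberg adjustment over 14742 genes at 0.05. DESeq2 1.42.0, limma 3.58.1, other scalings and filters, log2 FPKM with pseudocounts of 1 and 0.1, a replicate block and each library left out were alternatives. Scripts were tested on simulated data. The deviations of same-numbered libraries from their group means correlated above 0.1 in every pair of neighbouring time points (r over genes 0.743, 0.386 and 0.452 for replicates 1, 2 and 3, then 0.454, 0.367 and 0.197), so these were treated as paired. Between 4.5DDC and 6.5DDC only replicate 1 did so (0.383, -0.0396 and -0.215), and that span was not. Replicates 2 and 3 correlated across numbers as well (0.225 to 0.487), so the numbers set replicate 1 apart more than they tell 2 from 3. Full statistics were given for members called in a comparison, the most abundant member of each class and the stress-inducible members. Further members were chosen after their values were seen. The members and lists were chosen with earlier results of these data known. Summaries were computed in Python 3.11.15 (pandas 2.3.3, numpy 2.4.6) and drawn with matplotlib 3.10.9.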

Additional observations from a re-analysis of the deposited data

How the results depend on the processing

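Of the counts of members under the alternatives, 144 stayed within 1.5 times the main count and 22 moved. Many of the 144 were counts of 0 that stayed at 0, in the single intervals and the difference between them. Most of the 22 moves lay in the counts of the whole span and of any difference, so the tally overstates how stable those are. DESeq2 called 2 members higher and 1 lower from 4.5DDC to 5.5DDC, 12 higher and 4 lower over the whole span, and 12 for any difference. With the replicate block 2 members were higher from 4.5DDC to 5.5DDC and 11 over the whole span (Dnaja4, Dnajc6, Hspa12a, Hspa4l and Hspb11 besides the 6), and no other member changed its call over that span. A replicate block for replicate 1 against replicates 2 and 3, chosen after seeing the data, gave 2 higher from 4.5DDC to 5.5DDC, 2 higher from 5.5DDC to 6.5DDC (Dnajc12 and Dnajc6), 12 higher over the whole span and 12 for any difference. Over all genes, DESeq2 called 291 higher and 204 lower from 4.5DDC to 5.5DDC, against 9 and 2 in the main fit. The replicate block called 187 higher there and the added block 371. From 5.5DDC to 6.5DDC the added block called 357 genes higher, against 4 in the main fit. Leaving out each library in turn gave 2 to 8 members higher and 1 to 7 lower over the whole span, the lowest of both without replicate 2 of 4.5DDC or of 6.5DDC, and 0 to 8 for any difference, which was 0 without replicate 2 of 4.5DDC, 1 without replicate 3 of 5.5DDC or 2 of 6.5DDC, 2 without replicate 3 of 4.5DDC and 3 without replicate 2 of 5.5DDC or 3 of 6.5DDC. Lower calls numbered 2 without replicate 3 of 4.5DDC and 7 without replicate 1 of 6.5DDC. Counts over all genes, for the whole span and for any difference, moved too: 1854 higher, 1827 lower and 2976 for any difference by DESeq2, 1913 higher, 1505 lower and 2180 for any difference with the replicate block and 2363 higher, 2019 lower and 3287 for any difference with the added block, against 1358 higher, 1405 lower and 1420 for any difference without, and 1125 to 3132 in either direction over the whole span and 323 to 1831 for any difference without single libraries. The cause was not tested. Of the 10 called members Dnajb13, Dnajc12 and Dnajc11 were called under all 21 alternatives. The other genes' calls were lost mostly without single libraries. Without replicate 1 of 5.5DDC or of 6.5DDC the calls over the whole span rose, to 11 and 14 members and 3112 and 3132 genes.

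Estimates near 0 changed sign. On log2(FPKM + 1) and log2(FPKM + 0.1) that of Dnaja1 was -0.19 and -0.19, and with limma voom, with and without TMM, that of Dnajb11 was -0.065 and -0.065 and, with TMM, that of Dnajc2 from 5.5DDC to 6.5DDC 0.0050. Without single libraries the ranges were -0.30 to 0.014 for Dnajb1, -0.42 to 0.27 for Dnajb11, -0.082 to 0.15 for Dnajc7, -0.41 to 0.12 for Hspa8 and -0.18 to 0.075 for Dnajc2 from 5.5DDC to 6.5DDC. None of these values was called. The median of DNAJC moved to -0.045 without replicate 1 of 6.5DDC, and the other class medians moved by less than the spread between replicates, which is wide: without single libraries they ran -0.30 to 0.11 for HSP70 and -0.039 to 0.11 for DNAJA, which changed sign, -0.57 to -0.11 for HSP110, -0.38 to -0.17 for CCT, -0.71 to -0.25 for small heat shock proteins and 0.11 to 0.27 for DNAJB. The ends for HSP70 were without replicate 1 of 6.5DDC and replicate 3 of 4.5DDC, for DNAJA replicates 1 and 3 of 4.5DDC, for HSP110 replicate 1 of 6.5DDC and 3 of 4.5DDC, for CCT replicate 1 of 4.5DDC and 3 of 6.5DDC, for small heat shock proteins replicates 1 and 2 of 6.5DDC, and the upper end for DNAJB replicate 3 of 6.5DDC. The 13 members below 1 FPKM were left out of the tests, and the part of depth in their low values was not tested.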
